A study of Homo sapiens with 4 samples.

Results

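NF-kappaB is a family of dimeric transcription factors, and the transcripts described here are its 5 subunit genes (NFKB1, NFKB2, RELA, RELB and REL), 3 genes of the inhibitory IkappaB proteins (NFKBIA, NFKBIB and NFKBIE) and the genes of 2 further feedback regulators (TNFAIP3 and BIRC3). These 10 genes were chosen by name, with earlier results of these data known. All probes that could be tied to them were taken, 15 of the 47323 probes on the array and 10 of the 18834 genes that received a symbol. The study raised TARBP2, a double-stranded RNA-binding partner of DICER1, in MDA-231, a line of human breast cancer cells. RNA was taken 48 hours after transient transfection with a plasmid that drives TARBP2 from the CMV promoter (2 arrays) or with a plasmid that drives GFP from the same promoter (2 arrays). As the samples are labelled, both groups share the line, the transfection and the promoter, and they differ by the protein that the plasmid encodes. The series' own design text speaks of mock transfection for the control, whereas the sample labels name the GFP plasmid. Whether the 2 arrays of a group stand for separate cultures is not stated in the labels, and p-values here reflect the spread between arrays, which may be technical only.

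In resting cells NF-kappaB dimers are held in the cytoplasm by IkappaB proteins. In the canonical branch the IKK complex marks IkappaB for degradation, and dimers such as RELA with the p50 product of NFKB1 enter the nucleus. In the non-canonical branch the kinase MAP3K14 and IKK-alpha trigger the processing of the NFKB2 precursor, whose p52 product pairs with RELB. Several members are themselves targets of NF-kappaB, and the inhibitors among them close a negative feedback loop. MDA-231 cells are known for constitutive NF-kappaB activity.

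The promoters of the members were searched for sequences that resemble NF-kappaB binding sites. The degenerate kappaB consensus of 10 bases, whose pattern is the same on both strands, was searched in the RefSeq promoters of GRCh38.p14, from 250 bases before to 50 bases after each annotated start. A promoter was listed for 8 of the 10 members. At least 1 match was found in 7 of these 8 genes, some of which have several listed promoters. Counted by promoter, 8 of their 13 held a match, against 14.0% of all 35116 promoters. Several members are known targets and were chosen by name, so this difference is no test. The windows below, all upstream of an annotated start and at most 30 bases long, show the matches upstream of a start in capitals (1 further match in NFKBIB, downstream of its start, is not shown), and a run of more than 10 capitals holds overlapping matches.
NFKB1, chr4:102501300-102501329, plus strand: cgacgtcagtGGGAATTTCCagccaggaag
NFKB2, chr10:102394462-102394490, plus strand: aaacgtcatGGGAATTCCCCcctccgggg
NFKB2, chr10:102394490-102394519, plus strand: gggccgagaaGGGGCTTTCCcggccctgag
NFKB2, chr10:102395519-102395548, plus strand: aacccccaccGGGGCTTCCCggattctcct
NFKB2, chr10:102395674-102395703, plus strand: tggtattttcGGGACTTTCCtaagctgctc
REL, chr2:60881518-60881546, plus strand: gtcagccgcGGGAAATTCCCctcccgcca
NFKBIA, chr14:35404811-35404840, minus strand: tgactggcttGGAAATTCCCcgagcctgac
NFKBIB, chr19:38899932-38899960, plus strand: ggcgtggtgGGGAATTTCCCgcagggcgg
TNFAIP3, chr6:137867188-137867217, plus strand: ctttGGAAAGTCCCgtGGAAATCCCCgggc
BIRC3, chr11:102317275-102317304, plus strand: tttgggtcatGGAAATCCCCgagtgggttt
BIRC3, chr11:102317339-102317368, plus strand: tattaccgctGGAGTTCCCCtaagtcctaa
In TNFAIP3 the pair of matches lies side by side, with the nearer one ending 45 bases before the start site, and in NFKBIA the single match ends 71 bases before it. No match was found in either RELA promoter. A match is a resemblance of letters and does not show that NF-kappaB was bound there in these cells.

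The arrays were of even quality. The median raw intensity lay between 74.5 and 78.7, and 44.1% to 45.9% of probes were detected on each array, that is, were brighter than background at a detection p under 0.05. Within a group the log2 levels of detected probes differed between arrays with a standard deviation (SD) of 0.207 (TARBP2) and 0.211 (GFP). The brighter TARBP2 probe was 257-fold higher on the TARBP2 arrays, with log2 levels of 15.11 and 15.12 against 7.26 and 6.97. The other TARBP2 probe, detected on all arrays, had a log2 change of -0.22 and did not pass (adjusted p = 0.0722). The vimentin, CD44, AXL, caveolin and moesin transcripts that mark this mesenchymal-like line were detected on all arrays, and AXL and moesin (MSN) fell by 0.52 and 0.45 on the log2 scale. SPARC, also on that list, was detected on none. Of 6 luminal or epithelial genes that the line is known to lack or hold at low levels, ESR1 and PGR were detected on no array and EPCAM had no named probe. ERBB2 rose by 0.52 on its only detected probe, while its other probes were not above background on any array and were not tested. GATA3, not above background with GFP, was at least 1.13-fold higher (adjusted p = 0.0198). CDH1, not above background with TARBP2, was at least 1.14-fold lower (adjusted p = 0.0148). Each entered the test only through the group where it was brighter, so the filter favoured its direction. Both calls were lost under a mean-variance trend (adjusted p = 0.0826 and 0.0628), with window medians removed (0.351 and 0.0579) and in 3 of the 4 fits that left out 1 array. For GATA3 these were the fits without TARBP2 replicate 2 or either GFP array, and for CDH1 those without either TARBP2 array or GFP replicate 1. Moesin did not pass without TARBP2 replicate 2 or either GFP array (adjusted p from 0.0517 to 0.0622). Of 10 leukocyte markers, CD14 was higher on the TARBP2 arrays (log2 change 1.96) and LYZ did not pass (log2 change 0.36, adjusted p = 0.305). A further 7 were not detected on 2 arrays and 1 had no named probe. Both probes of PTPRC, the pan-leukocyte CD45, were not above background on any array. The raw intensities of the 16 leukocyte probes summed to 1622 and 1652 on the TARBP2 arrays and to 1237 and 1228 on the GFP arrays. Without CD14 they summed to 870.4 and 895.9 against 953.8 and 961.4. Of the 14 probes without CD14, at most 2 were detected on any array, so these sums are mostly background. The part of CD14-expressing cells in the results below was not tested.

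Of the 15 member probes, 14 were detected on at least 2 arrays and were tested. Levels are log2 values after background correction and quantile normalization, and a log2 change is the TARBP2 mean minus the GFP mean with its standard error (SE, n = 2 arrays per group). Rose and fell are used for probes with a limma adjusted p under 0.05 over all 22123 detected probes. By that rule 6 member probes rose, 2 fell and 6 did not pass, so that 57.1% changed, against a background of 40.3% of all detected probes (20.5% rose and 19.8% fell). The rises include the dimmer NFKBIB probe, which entered the test through the TARBP2 arrays alone. The groups did not overlap for 12 of the 14 member probes, against 71.7% of all detected probes. The median log2 change was 0.08 over the member probes and -0.0014 over all detected probes, and the median size of change without regard to sign was 0.38 and 0.27. With so many probes changed across the array, the count of changed members is not far from the background. Counted by gene, on the brightest probe of each, 4 members rose, 2 fell and 4 did not pass, beside 45.2% of the 11705 named genes that changed (23.3% rose and 21.9% fell). On these probes the groups did not overlap for 9 of the 10 genes, against 77.2% of all named genes. In RNA from whole cultures, fewer cells of a type and less RNA per cell cannot be told apart.

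**Figure D1:**
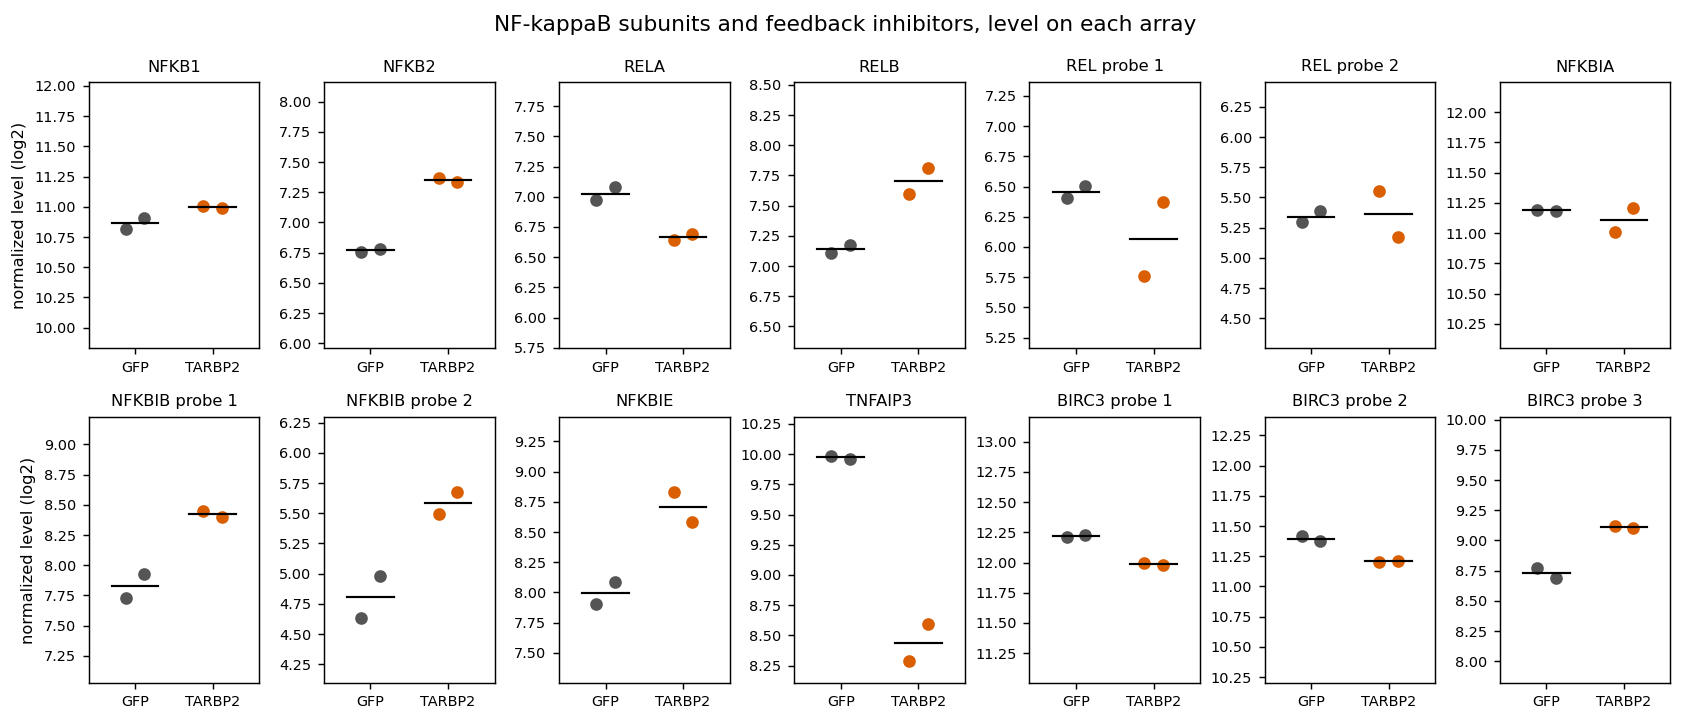
Normalized log2 level (y axis) of each detected member probe on each of the 2 GFP arrays (grey) and 2 TARBP2 arrays (orange), with group means as lines; every panel spans the same range of 2.2 log2 units. Probes of a gene are numbered from the brightest. TNFAIP3 shows the widest gap between the groups, and the groups overlap in the panels of REL probe 2 and NFKBIA.

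Among the subunits, NFKB2 and RELB, the partners of the non-canonical branch, rose by similar amounts. NFKB2 encodes the p100 precursor of p52. Its detected probe read 7.37 and 7.34 on the TARBP2 arrays against 6.76 and 6.78 on the GFP arrays, and the arrays of a group differed by at most 0.03. The log2 change was 0.58 ± 0.07 (SE, adjusted p = 0.00514). The other NFKB2 probe, tied to the transcript NM_001077494, was not above background on any array and was not tested. RELB, a subunit that works mainly as a partner of p52 or p50, read 7.60 and 7.81 on the TARBP2 arrays against 7.10 and 7.17 on the GFP arrays. Its lowest TARBP2 array lay above its highest GFP array, and the log2 change was 0.57 ± 0.10 (SE, 1.48-fold, adjusted p = 0.0132). The call for RELB was lost with replicate 2 of the TARBP2 group left out (adjusted p = 0.0563), as it was with replicate 1 of the GFP group left out (adjusted p = 0.0593). NFKB2 passed in all 14 alternatives run, but it lies on chromosome 10 in a window of 50 neighbouring named genes that were shifted together, with a median of 0.32 on the log2 scale. Taking the window median away left NFKB2 at 0.26 (adjusted p = 0.0257), while that of RELB stayed at 0.57.

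RELA, the main transactivating subunit of the canonical branch, moved the other way. Its single probe read 6.64 and 6.70 on the TARBP2 arrays against 6.97 and 7.08 on the GFP arrays, so that both TARBP2 arrays lay below both GFP arrays. It fell by 0.36 ± 0.08 on the log2 scale (SE, 1.28-fold), with an adjusted p of 0.0257. The probe was dim, with raw intensities from 148.1 to 188.0, and the call was lost whichever array was left out (adjusted p from 0.0604 to 0.114). With window medians removed the log2 change of RELA was -0.61 (adjusted p = 0.00263), since its window on chromosome 11 had a median of 0.25.

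NFKB1, which encodes the p105 precursor of p50, did not pass. It was bright on every array, at 11.01 and 10.99 on the TARBP2 arrays against 10.81 and 10.91 on the GFP arrays. The groups did not overlap, but the log2 change was only 0.14 ± 0.08 (SE, adjusted p = 0.233), with a 95% confidence interval from -0.07 to 0.34. The genes around it on chromosome 4 had a window median of 0.35 on the log2 scale, and after its removal NFKB1 stood at -0.21 (adjusted p = 0.0624). For REL, the c-Rel subunit best known from lymphocytes, both probes were near background. The brighter probe read 5.76 and 6.37 on the TARBP2 arrays against 6.41 and 6.51 on the GFP arrays, and the other 5.56 and 5.17 against 5.30 and 5.38. Neither passed, at log2 changes of -0.39 (95% confidence interval -0.94 to 0.16) and 0.02 (-0.36 to 0.40). The TARBP2 arrays of REL were 0.61 apart on the brighter probe and in the opposite order on the other. Leaving out replicate 2 of the TARBP2 arrays brought the brighter probe past the threshold, at -0.69 (adjusted p = 0.0355), whereas with replicate 1 left out instead it stood at -0.085 (adjusted p = 0.576).

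**Figure D2:**
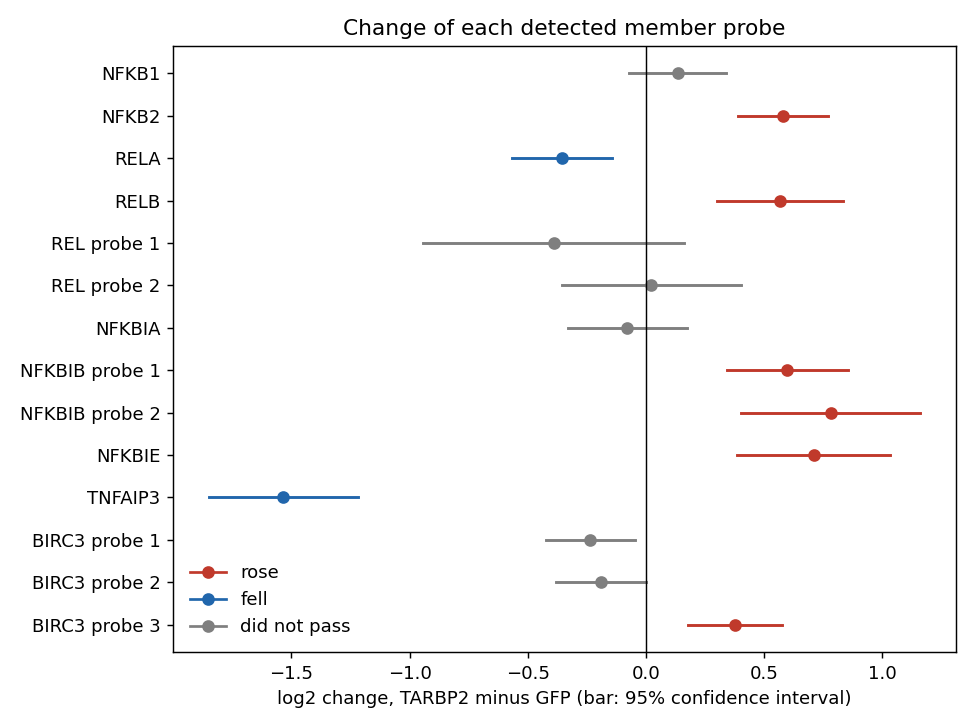
Log2 change, TARBP2 minus GFP (x axis), of each detected member probe (y axis), with bars for the 95% confidence interval of the limma fit; colours show probes that rose (red), fell (blue) or did not pass (grey) after adjustment over all detected probes. NFKB2, RELB, the brighter NFKBIB probe and NFKBIE lie between 0.57 and 0.71, the dimmer NFKBIB probe, not above background on the GFP arrays, is drawn at its measured 0.78, TNFAIP3 lies at -1.53, and the 3 BIRC3 probes lie on both sides of 0.

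The IkappaB genes did not move together. NFKBIA encodes IkappaB-alpha, the inhibitor that NF-kappaB resynthesises fastest after activation. It was bright and nearly level, at 11.01 and 11.21 on the TARBP2 arrays against 11.19 and 11.18 on the GFP arrays, and the groups overlapped. Its log2 change was -0.08 ± 0.10 (SE, adjusted p = 0.559), with a 95% confidence interval from -0.33 to 0.17, so the interval leaves out changes as large as those of the other IkappaB genes. The sign turned without replicate 1 of the TARBP2 arrays, where the log2 change was 0.02.

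NFKBIE and NFKBIB, which encode IkappaB-epsilon and IkappaB-beta, both rose. NFKBIE read 8.83 and 8.58 on the TARBP2 arrays against 7.90 and 8.09 on the GFP arrays, and its raw intensities were 501.7 and 432.7 against 284.8 and 325.0. The log2 change was 0.71 ± 0.12 (SE, 1.64-fold, adjusted p = 0.0122). It was the largest rise among members measured above background on all 4 arrays. The brighter NFKBIB probe read 8.45 and 8.40 on the TARBP2 arrays against 7.73 and 7.93 on the GFP arrays, a log2 change of 0.60 ± 0.10 (SE, 1.51-fold, adjusted p = 0.0103). The dimmer NFKBIB probe was above background only on the TARBP2 arrays, where it read 5.50 and 5.68 against 4.63 and 4.98, so it was at least 1.41-fold higher on this background-corrected scale (adjusted p = 0.0142). Its log2 change shrank from 0.78 to 0.43 without background correction, to 0.46 on the deposited quantile-normalized intensities and to 0.40 with an offset of 50, and it passed in each of these. The dimmer probe entered the test only through the TARBP2 arrays, where it was high. Its direction therefore adds no independent support to that of the brighter probe. NFKBIE did not pass without replicate 1 of the TARBP2 arrays or replicate 1 of the GFP arrays (adjusted p = 0.0605 and 0.0528). The brighter NFKBIB probe did not pass when either TARBP2 array was left out (adjusted p = 0.0653 and 0.0554), and the dimmer probe behaved likewise (adjusted p = 0.0597 and 0.086).

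TNFAIP3 had the largest change of all members. It encodes A20, a ubiquitin-editing enzyme that is induced by NF-kappaB and shuts off signalling from TNF and Toll-like receptors to IKK. Its raw intensities were 357.9 and 435.1 on the TARBP2 arrays against 1056 and 1064 on the GFP arrays, and the log2 levels were 8.29 and 8.59 against 9.99 and 9.96. Even the higher TARBP2 array lay 1.37 log2 units below the lower GFP array. The transcript fell by 1.53 ± 0.12 on the log2 scale (SE, 2.90-fold), with an adjusted p of 0.00152 and a 95% confidence interval from -1.85 to -1.22. Only 1.35% of detected probes (298) had a change as low or lower. The fall passed in all 14 alternatives, with log2 changes from -1.69 to -1.39. TNFAIP3 and NFKBIA, both known NF-kappaB targets with kappaB matches close to their starts, thus had confidence intervals that did not overlap.

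BIRC3, which encodes the ubiquitin ligase cIAP2, gave different answers on its 3 probes. The brightest probe read 11.99 and 11.98 on the TARBP2 arrays against 12.21 and 12.23 on the GFP arrays, a log2 change of -0.23 ± 0.07 (SE) that did not pass at an adjusted p of 0.0574. The next read 11.20 and 11.21 against 11.42 and 11.38, a log2 change of -0.19 ± 0.07 (SE, adjusted p = 0.1). The dimmest read 9.12 and 9.10 against 8.77 and 8.69 and rose by 0.38 ± 0.08 (SE, adjusted p = 0.018). Arrays within a group differed by at most 0.08 on these probes, less than the gap between the groups on each. The 95% confidence interval of the dimmest probe, from 0.18 to 0.58, did not overlap those of the other probes, which ended at -0.05 and 0.001. The dimmest and the brightest probe were tied to the same transcript, NM_001165, for which the authors' deposited table gives their mean, a log ratio of 0.03. Which part of BIRC3 each probe reads was not analysed here. The call of the brightest probe depended on the processing, since it passed in 8 of 14 alternatives, among them the deposited quantile-normalized intensities (adjusted p = 0.0294). The rise of the dimmest probe was lost whichever array was left out (adjusted p from 0.0553 to 0.0848).

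**Figure D3:**
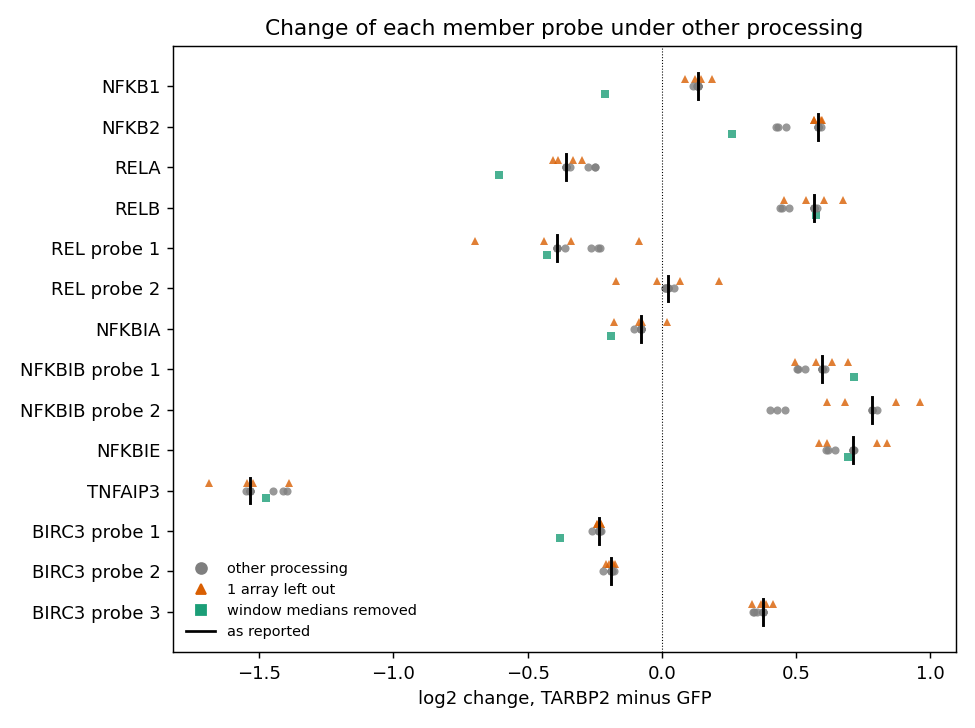
Log2 change, TARBP2 minus GFP (x axis), of each member probe (y axis) as reported (black line), with 1 array left out (triangles), with window medians removed (squares) and under the other processing alternatives (circles). TNFAIP3 stays between -1.69 and -1.39, and NFKB1 lies at -0.21 with window medians removed.

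In the authors' deposited table the members have 12 transcript accessions, and 1 of them, that of TNFAIP3, was classed as down-regulated, with a log ratio of -1.23. The other 11 were classed as background, and the table has no class for higher transcripts. Among these 11 the authors' deposited table gives log ratios from -0.18 for BIRC3 transcript NM_182962 to 0.49 for NFKBIE, with 0.31 for RELB. For NFKBIB it gives 0.29, the mean of the brighter and the dimmer probe. The log ratio of NFKB2 was 0.28 on its detected probe and 0.04 on the probe not above background. The authors' ratios were formed on another scale, a scaled inverse hyperbolic sine of normalized intensities, and for these dimmer genes they were smaller than the log2 changes above.

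The rest of the pathway was described with lists of 104 genes, of which 91 were tested. Of these, 36 rose, 23 fell and 32 did not pass (64.8% changed, against 45.2% of all named genes), with a median log2 change of 0.11 against -0.00053 over all named genes. The lists were chosen with earlier results of these data known, so the larger share is no test of the pathway. The rises include TAB3, IL32, CSF3 and C3, which entered the test through the TARBP2 arrays alone. The atypical IkappaB proteins act in the nucleus, and they moved in both directions. BCL3, a coactivator that binds p50 and p52 homodimers, read 8.32 and 8.02 on the TARBP2 arrays against 7.10 and 7.19 on the GFP arrays (log2 change 1.03 ± 0.12, SE, adjusted p = 0.00471). On its brighter probe NFKBIZ, IkappaB-zeta, fell by 0.62 ± 0.12 (SE, adjusted p = 0.0167), although it did not pass when replicate 2 of either group was left out (adjusted p = 0.0741 for TARBP2 and 0.0696 for GFP), and its dimmer probe did not pass at -0.09. NFKBID, IkappaB-NS, did not pass at -0.04 (adjusted p = 0.808).

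Of 12 IKK subunits and upstream kinases, 4 rose, 3 fell and 5 did not pass (median log2 change 0.06). That is 58.3% changed, against 45.2% of all named genes. IKBKG, the scaffold subunit NEMO of the canonical IKK complex, read 9.80 and 9.73 on the TARBP2 arrays against 10.78 and 10.74 on the GFP arrays, and it fell by 0.99 ± 0.08 (SE, adjusted p = 0.0015). A near-identical pseudogene of IKBKG exists, so this value is uncertain. MAP3K14, the kinase NIK of the non-canonical branch, read 7.13 and 7.10 against 6.18 and 6.37, and it rose by 0.84 ± 0.09 (SE, adjusted p = 0.00382). TAB3, an adaptor of the kinase TAK1, was not above background on either GFP array. It was at least 1.29-fold higher on the background-corrected scale (adjusted p = 0.00605). Its log2 change was 0.33 with an offset of 50, 0.34 with window medians removed and 0.34 without background correction. TAB3 entered the test only through the TARBP2 arrays, where it was high, so its direction adds no independent support. NFKB2 and RELB, whose proteins act downstream of MAP3K14, rose as well, and whether these changes are linked was not tested.

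Of 22 receptors and adaptors tested, 7 rose, 5 fell and 10 did not pass, with a median log2 change of 0.08. The share changed was 54.5%, against 45.2% of all named genes. TNFRSF1B, the TNF receptor TNFR2, rose from 5.50 and 5.29 on the GFP arrays to 8.28 and 8.39 on the TARBP2 arrays, or 7.70-fold (adjusted p = 0.000223). IL1R1, the signalling receptor for interleukin-1, rose 3.80-fold, from 6.64 and 6.57 to 8.56 and 8.51 (adjusted p = 0.000296). TRAF1, an adaptor of TNF receptors and itself an NF-kappaB target, rose by 0.87 ± 0.07 (SE, adjusted p = 0.00188), and by 0.48 without background correction.

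The genes of ubiquitin editing, to which TNFAIP3 belongs by function, were evenly split, with 4 that rose, 4 that fell and 8 that did not pass of 16 tested (median log2 change -0.08). With 50% changed, the list was near the 45.2% of all named genes. RBCK1, a subunit of the linear ubiquitin ligase that feeds IKK, fell by 0.89 ± 0.07 (SE, adjusted p = 0.00178). TNIP1, a ubiquitin-binding partner of A20, read 11.02 and 11.14 on the TARBP2 arrays against 11.63 and 11.71 on the GFP arrays, and it fell by 0.60 ± 0.09 (SE, adjusted p = 0.0072). OTUD7B, a deubiquitinase that acts on TRAF3, rose by 0.56 ± 0.08 (SE, adjusted p = 0.00699), and by 0.29 without background correction.

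Known targets of NF-kappaB changed in both directions. Of 13 cytokine targets tested, 8 rose, 3 fell and 2 did not pass (median log2 change 0.48), and a further 8 were not detected on 2 arrays. Of those tested 84.6% changed, against 45.2% of all named genes. The rises include IL32 and CSF3, which entered the test through the TARBP2 arrays alone, so their direction adds no independent support. The chemokine CCL20 fell 6.17-fold, from 10.69 and 10.70 on the GFP arrays to 8.05 and 8.09 on the TARBP2 arrays (adjusted p = 0.000132). The chemokine CXCL10, detected on only 1 GFP array, had a log2 change of 2.16 ± 0.08 (SE, adjusted p = 0.00022), and the cytokine IL32, not above background with GFP, was higher by at least 5.11-fold on the background-corrected scale (adjusted p = 0.000364). On the deposited quantile-normalized intensities the log2 changes were smaller, at 1.35 for CXCL10 and 1.63 for IL32. Of 25 other targets, 12 rose, 7 fell and 6 did not pass (76% changed, median log2 change 0.28). These rises include C3, which also entered the test through the TARBP2 arrays alone. CD83, a surface protein, rose 2.77-fold and PTGS2, cyclooxygenase 2, 2.23-fold, while PTX3, a secreted pattern recognition protein, fell 2.23-fold (adjusted p = 0.000639, 0.00114 and 0.001). Thus some targets, TNFAIP3, CCL20 and PTX3 among them, fell while others rose on the same arrays.

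**Figure D4:**
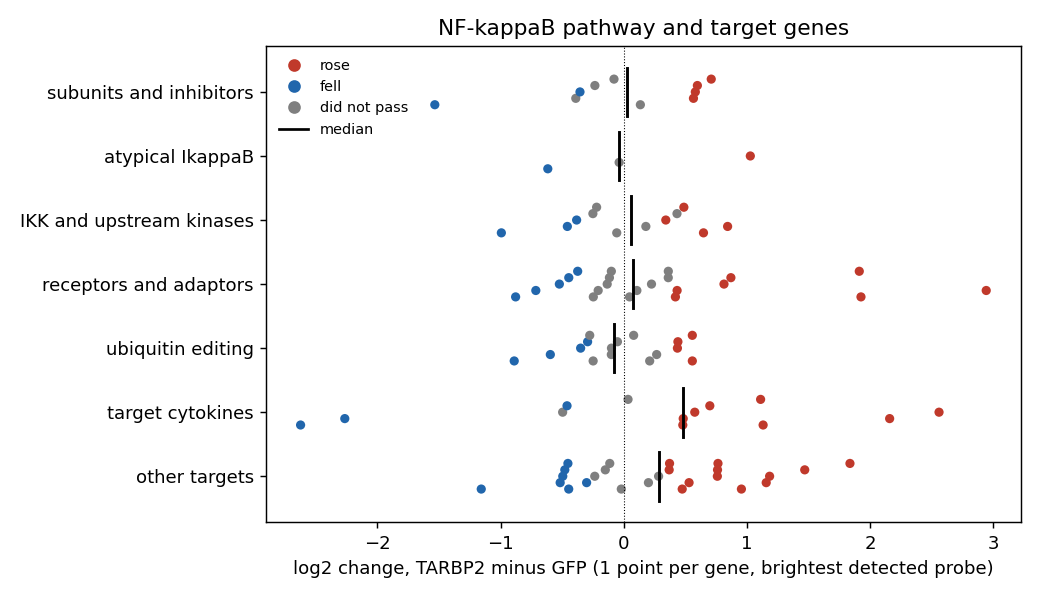
Log2 change, TARBP2 minus GFP (x axis), of the members and of 91 other genes of the NF-kappaB pathway in 6 lists (y axis), 1 point per gene on its brightest detected probe; colours show genes that rose (red), fell (blue) or did not pass (grey), and vertical lines the list medians. Each list holds genes on both sides of 0, and the largest changes belong to receptors and target cytokines.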

How the data were processed

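The authors deposited non-normalized bead intensities with detection p-values for 47323 probes, intensities that are quantile-normalized between arrays (found from the values; lumi is named in the submitters' processing notes), and a final table of a log ratio, read here as log2, and a class per accession, per the file headers. Neither the lumi version nor a genome build is given in the sources used here.

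No table used here pairs probes with accessions. The authors' log ratio was found to be a group difference of a scaled inverse hyperbolic sine of the deposited quantile-normalized intensities. Of 39747 accessions, 33114 matched 1 probe to within 1e-09 (13 after all values were shifted) and 5567 matched the mean of a single possible pair of remaining probes. The members of 93.6% of these pairs stood at most 5 rows apart in the intensity table, which was not used for matching. Of the 12 member accessions, 9 were tied to 1 probe and 3 (NFKBIB, REL and NM_001165 of BIRC3) to a pair. For these, 0.052, 0.141 and 0.213 coincidental pairs were expected, and their probes stood 2, 1 and 1 rows apart. Through RefSeq (GRCh38.p14), 22411 accessions received a symbol.

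The non-normalized intensities went through neqc of limma 3.58.1 in R 4.3.3 (normexp with an offset of 16, quantile normalization, log2). Probes detected at p under 0.05 on 2 or more arrays were fitted (lmFit, eBayes, 2-sided, 2 residual and 2.81 prior degrees of freedom), with Benjamini-Hochberg adjustment over all 22123. Genes were represented by their brightest detected probe. For an at-least fold, the level on each array of the dim group was raised to the lowest detected signal of that array where it lay below. Window medians are those of 50 neighbouring named genes. Arrays give no read depth, and their number limits the precision.

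Named are all members, TARBP2 and the 3 genes with the smallest p-values of every pathway list. CSF3 and C3 are named only for the way they entered the test. The marker genes named were chosen after their values were seen where they are not among the smallest p. The members and lists were chosen with earlier results of these data known. The fitting and matching steps were tested on simulated data. Same-numbered arrays did not deviate together (correlation 0.006 across probes), so the numbers were not taken to pair them. Alternatives covered normalization, offset, filter, probe choice, replicate block, variance trend, window medians and leaving out each array.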

Additional observations from a re-analysis of the deposited data

How the results depend on the processing

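The 14 member probes were refitted under every alternative they could enter, 187 values in all. Of these, 157 kept the direction and the side of the threshold, 16 lost the call in the same direction, 10 gained one and 4 turned sign. All 16 losses came from leaving out 1 array. The sign turned for NFKB1 with window medians removed (-0.21). It also turned when 1 array was left out for the dimmer REL probe (-0.169 to 0.215, negative without replicate 1 of either group) and for NFKBIA (-0.18 to 0.021, positive without replicate 1 of the TARBP2 arrays). None of these values passed. Outside the members, NFKBID lay between -0.137 and 0.062 and was positive without replicate 2 of either group.

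Of the 8 member probes that changed, between 3 and 6 passed when 1 array was left out. The count of changed probes on the whole array fell from 8917 to between 4603 and 5673, and that of the 59 changed pathway genes to between 34 and 40. These fits have fewer samples. In the other alternatives the member count lay between 7 and 10, and 7 came from fits that hold 1 probe per gene. With the replicate number as a block the member count stayed at 8, the pathway count was 55 and the array count 8067, and no call of a member probe changed. Without background correction, log2 changes of dim probes shrank by more than 1.5 times for the dimmer NFKBIB probe, the brighter REL probe (-0.23), TAB3, TRAF1, OTUD7B, CXCL10, IL32, CDH1 (-0.29), GATA3 (0.25), the dimmer REL probe, NFKBID and LYZ, and each kept its direction and its side of the threshold. Among the member probes the SE was largest for the brighter REL probe, at 0.213.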

Other observations

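Other genes of the non-canonical branch were read after their values were seen. CD40, a receptor that signals through MAP3K14, rose on both of its probes (log2 change 1.91 ± 0.17 and 1.79 ± 0.16, SE, adjusted p = 0.002 and 0.00229). On the brighter probe it read 8.29 and 8.17 on the TARBP2 arrays against 6.55 and 6.09 with GFP. CHUK, which encodes IKK-alpha, rose by 0.49 ± 0.08 (SE, adjusted p = 0.0117). TNFRSF11A, the receptor RANK, fell by 0.88 ± 0.18 (SE, adjusted p = 0.018) and was detected on only 1 TARBP2 array. LTBR and TNFRSF12A, receptors of the same branch, had log2 changes of 0.11 and -0.13 and did not pass (adjusted p = 0.381 and 0.335). TRAF2 and TRAF3, adaptors that keep MAP3K14 protein low, had log2 changes of 0.05 and 0.36 and did not pass (adjusted p = 0.641 and 0.0753). BIRC2, which encodes cIAP1 and is the close relative of BIRC3, was higher by 0.23 on its brighter probe, which did not pass (adjusted p = 0.0895), and rose by 0.35 on its other probe (adjusted p = 0.0387).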
